A study of Mus musculus with 2 samples.

Results

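The genes described are 9 noncoding genes of mouse: the nuclear long noncoding RNAs (lncRNAs) Malat1 and Neat1, and the small nucleolar RNA (snoRNA) host genes Gas5, Snhg1, Snhg3, Snhg5, Snhg6, Snhg8 and Snhg12. They were chosen by name, and a gene was taken where the version-free identifier of its symbol had an entry in the gene and transcript tables. Of the 9, 7 had an entry among 43346 genes, and Snhg1 and Snhg8 had no matching entry and were not analysed here. The samples are 2 libraries of polyadenylated RNA, labelled biological replicates 1 and 2, that form 1 group. The cells are G1E-ER4, an immortalized mouse erythroid line without a functional Gata1 of its own, in which GATA1 activity is restored by a fusion to the hormone-binding domain of the estrogen receptor. Both libraries come from cells given 10 nM 17beta-estradiol for 24 h, which starts erythroid differentiation. The labels tie both libraries to 1 biosample and do not say whether separate cultures were used. Cells without estradiol were not analysed here.

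Malat1 and Neat1 are neighbouring genes whose RNAs stay in the nucleus. Malat1 RNA gathers in nuclear speckles, bodies rich in splicing factors, while the long form of Neat1 is the scaffold of paraspeckles, which do not form without it. The short form of Neat1 ends at a poly(A) signal inside the gene; the long form, like Malat1, is known to be cut at its 3′ end by RNase P in front of a small RNA that resembles a transfer RNA, and is protected there by an A-rich triple helix in place of a poly(A) tail. SnoRNA host genes carry snoRNAs, guides for the chemical modification of ribosomal RNA, inside their introns: the snoRNAs are freed after splicing, and the spliced exons of several hosts, Gas5 among them, are short-lived because translation exposes them to nonsense-mediated decay. These host transcripts are known for starting with a run of pyrimidines, the terminal oligopyrimidine motif that ties translation to growth signals.

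The ends of the 2 main forms of each nuclear lncRNA are shown because the results turn on how reads were split between those forms. They were read from the GENCODE M21 transcripts (mm10, minus strand), and capitals mark a poly(A) signal (AATAAA or ATTAAA) or, for the long form of Neat1, runs of A.
Neat1-202, chr19:5842307-5842366: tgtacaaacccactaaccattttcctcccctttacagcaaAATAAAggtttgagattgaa
Neat1-201, chr19:5824708-5824767: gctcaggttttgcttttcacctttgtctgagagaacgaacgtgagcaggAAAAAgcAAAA
Malat1-201, chr19:5795690-5795749: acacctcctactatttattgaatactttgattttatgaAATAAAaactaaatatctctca
Malat1-204, chr19:5795694-5795753: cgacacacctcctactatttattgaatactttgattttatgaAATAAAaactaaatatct
In Neat1-202 the signal is followed by 14 bases up to the annotated end, and the last 40 bases of Neat1-201 hold neither signal. The ends of Malat1-201 and Malat1-204 overlap and hold the same AATAAA. Such a signal stood in the last 40 bases of 1 of 3 Neat1 transcripts, 3 of 4 Malat1 transcripts and 17 of 25 Gas5 transcripts, against 32.6% of 141704 annotated mouse transcripts.

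The spliced forms differ from the unspliced ones by junctions, shown next with the downstream exon in capitals, since reads across them belong to spliced forms. Neat1-203 shares the junction of Neat1-202.
Malat1-204, bases 545 to 584: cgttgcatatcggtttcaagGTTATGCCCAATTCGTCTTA
Neat1-202, bases 533 to 572: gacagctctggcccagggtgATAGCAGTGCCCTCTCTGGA
The Malat1-204 junction joins chr19:5796389-5796952 to chr19:5795694-5795785 across an intron of 603 bases, and the Neat1-202 junction joins chr19:5844925-5845476 to chr19:5842307-5844758 across an intron of 166 bases.

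Depth was 5.09 times greater in replicate 1, at 70451042 estimated counts, than in replicate 2, at 13841487. After scaling with the trimmed mean of M values (TMM), where CPM is the scaled count per 1e6 counts, 1 count was worth 0.0124 CPM in replicate 1 and was worth 0.0829 CPM in replicate 2. A count of 0, taken to allow up to 3 counts, allowed 0.0371 and 0.249 CPM. All 8 erythroid marker genes had a TPM (transcripts per 1e6 transcripts, a level per length) of at least 1 in both libraries, with the beta globin gene Hbb-bs at 122878 and 45332 TPM, and so did 3 of 4 megakaryocyte markers, with Pf4 at 0. None of the 4 mast cell, 6 neutrophil and monocyte, 4 lymphoid and 4 endothelial and stromal markers did, and each of these lists summed to between 0.03 and 1.2 TPM. The erythroid list includes Gata1, at 3038 and 2940 TPM. Its reads were not told apart from those of the GATA1 fusion. No p-value is given below, because 2 libraries cannot go under p = 0.5 in a two-sided exact sign-flip test and a comparison of the libraries has 1 on each side. Intervals of ratios are exact binomial 95% intervals and cover counting error only.

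Neat1 and Malat1 had the highest TPM of the 7 genes in both libraries, and the host genes lay below them. Summed over the 7 genes, the level came to 160 TPM in replicate 1 and to 36.2 TPM in replicate 2, of which Malat1 and Neat1 held 83.8% and 75.2%. The 5 host genes with an entry summed to 26.0 and 8.96 TPM. With at least 1 TPM in both libraries taken as detected, 4 of 7 genes passed, namely Neat1, Malat1, Snhg12 and Gas5, beside 17.2% of all genes. The detected share of the 5694 lncRNA genes of the annotation was 2.42%, with a median of 6.41 TPM over the 138 detected, and the median over all detected genes was 18.6 TPM. All 7 genes had the higher TPM in replicate 1, as did 58.2% of 15227 genes with a TPM above 0 in either library. In posterior mean TPM, the deposited alternative estimate, the direction turned for 2 of the 7. Snhg3 had 0.55 and 1.43 TPM and Snhg5 had 0.48 and 1.33 TPM. Their counts in replicate 2 were 0 for Snhg3 and 1 for Snhg5. The posterior mean is above 0 even for transcripts with 0 counts, so the turn does not show a higher level in replicate 2. In posterior mean TPM, 40.3% of the 15227 genes were higher in replicate 1. By this estimate Neat1 and Snhg12 were close in replicate 2, at 11.4 and 10.9 TPM. Their deposited intervals there, 8.69 to 14.0 TPM and 6.44 to 17.1 TPM, overlapped. In RNA from bulk cells, fewer cells with a transcript and less of it per cell cannot be told apart.

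**Figure D1:**
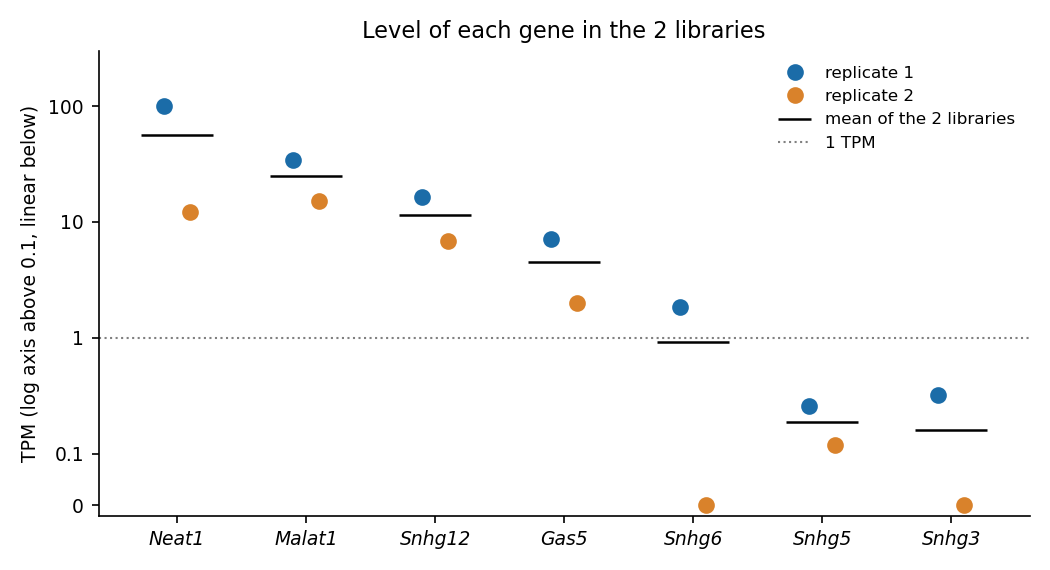
TPM of the 7 genes with an entry in replicate 1 (blue) and replicate 2 (orange), with bars at the mean of the 2 libraries; the axis is logarithmic above 0.1 TPM and linear below, and the dotted line marks 1 TPM. Every gene sits higher in replicate 1, from 100.1 against 12.1 TPM for Neat1 to 0.32 against 0 TPM for Snhg3.

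Neat1 (ENSMUSG00000092274.2, mm10 chr19:5824708-5845478, minus strand), the paraspeckle RNA, stood at 100.1 TPM in replicate 1 and at 12.1 TPM in replicate 2, a mean of 56.1 ± 62.2 TPM (SD, n = 2). The level in replicate 1 was 8.25 times that in replicate 2, so the SD exceeded the mean. It was the 10th of 5694 lncRNA genes by TPM in replicate 1 and the 39th in replicate 2. The estimated counts were 24289 and 724, or 300 and 60.0 CPM after TMM scaling. On that scale Neat1 was 5.0-fold higher in replicate 1 (4.65 to 5.39; log2 ratio 2.32).

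Malat1 (ENSMUSG00000092341.2, chr19:5795690-5802672, minus strand), the speckle RNA, stood at 34.3 TPM in replicate 1 and at 15.1 TPM in replicate 2, a mean of 24.7 ± 13.6 TPM (SD, n = 2). It ranked 20th and 36th among lncRNA genes and 2632nd and 3693rd among all genes. The estimated counts were 15081 and 414, and in CPM it was 5.43-fold higher in replicate 1 (4.93 to 6.0; log2 ratio 2.44). In TPM the same ratio was 2.28, and the deposited mean length over its transcripts, by which TPM is divided, was 6524 bases in replicate 1 and 2584 bases in replicate 2. A mean length in replicate 2 at or under 50% of that in replicate 1 was found in 3.07% of 3060 genes with more than 1 listed transcript and at least 10 TPM in both libraries.

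The order of the pair differed between the libraries. Neat1 had 2.92 times the TPM of Malat1 in replicate 1, whereas Malat1 had 1.24 times the TPM of Neat1 in replicate 2. The deposited intervals of posterior mean TPM, whose level is not stated, lay apart in replicate 1, at 97.6 to 100.5 TPM for Neat1 and 32.9 to 35.6 TPM for Malat1. In replicate 2 they overlapped, at 8.69 to 14.0 TPM for Neat1 and 12.3 to 17.9 TPM for Malat1. Their order in TPM was thus clear of these intervals in replicate 1 only. Together they held 1.82% of the estimated counts of lncRNA genes in replicate 1 and 0.119% in replicate 2. The lncRNA genes with the highest TPM in both libraries were Gm42418, at 9292 and 19380 TPM, and Gm26917, at 4872 and 21132 TPM. Both are annotated as lncRNA genes but were treated as ribosomal RNA-like in the alternatives run. Their counts are part of the lncRNA total, so the shares of Malat1 and Neat1 in it depend on them too.

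The transcripts of both genes were split in different proportions in the 2 libraries. These shares are model estimates, since the forms share most of their bases. The libraries are of polyadenylated RNA, while Malat1 and the long form of Neat1 are known to end without a poly(A) tail. Their levels, ranks and shares are thus those of the RNA captured, and how fully these forms were captured was not tested. The deposited tables list 3 Neat1 transcripts: Neat1-201, the long form of 20771 bases in 1 exon; Neat1-202, a spliced short form of 3004 bases in 2 exons; and Neat1-203, a spliced form of 1030 bases in 4 exons. For Malat1, reads were assigned to Malat1-201, the unspliced form of 6983 bases, and to Malat1-204, a form of 656 bases in 2 exons at the 3′ end of the gene.

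**Figure D2:**
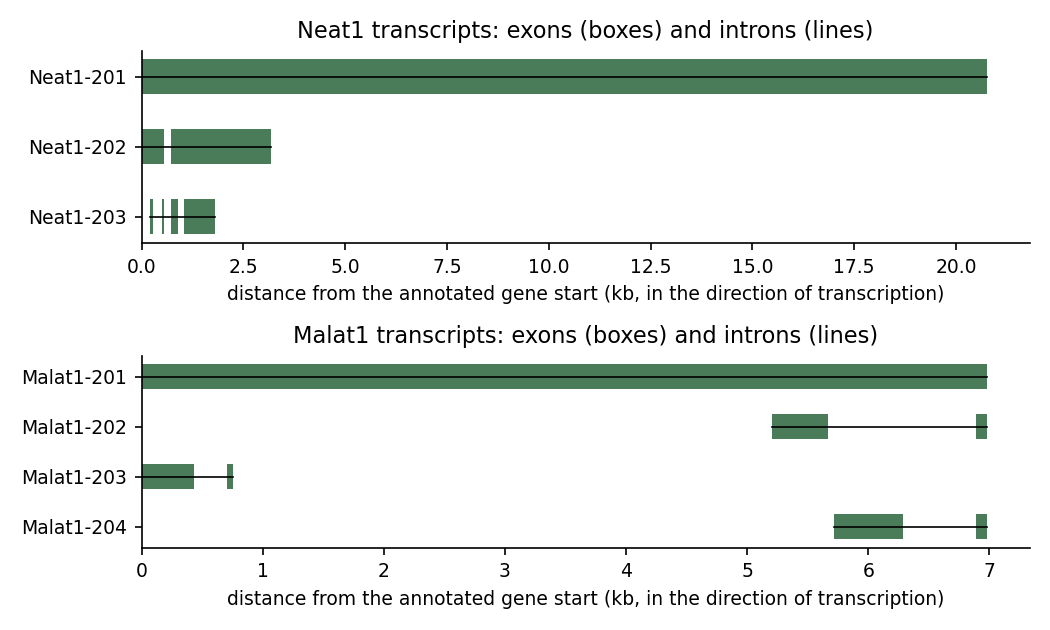
Exons (boxes) and introns (lines) of the Neat1 and Malat1 transcripts of GENCODE M21, by distance in kilobases from the annotated gene start. Neat1-202 and Neat1-203 lie in the first part of the 20771 bases of Neat1-201, while Malat1-204 and Malat1-202 lie at the end of the 6983 bases of Malat1-201.

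For Neat1 the short form differed most between the libraries and the long form least. Neat1-202 stood at 95.5 TPM in replicate 1 and at 5.40 TPM in replicate 2, from 18770 and 173 estimated counts, a 16.2-fold higher CPM in replicate 1 (log2 ratio 4.01). Neat1-201, the paraspeckle scaffold, had 3.85 and 2.19 TPM from 5471 and 505 counts, a 1.62-fold higher CPM in replicate 1 (log2 ratio 0.69). The deposited intervals of Neat1-201 did not overlap, at 3.69 to 3.92 TPM and 1.85 to 2.30 TPM. Neat1-203 had 0.79 and 4.55 TPM from 48.0 and 45.8 counts, which made it 6.43-fold higher in replicate 2 in CPM, with intervals of 0.54 to 1.09 TPM and 1.11 to 7.21 TPM. Of 17009 transcripts whose mean CPM was 1 or more, 38.7% were at least 2-fold higher in replicate 1 and 25.5% in replicate 2.

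In shares of the gene's TPM, Neat1-202 led in both libraries, with 95.4% in replicate 1 and 44.5% in replicate 2. Neat1-203 had 0.79% and 37.5%, and Neat1-201 had 3.84% and 18.0%. In shares of estimated counts the long form came first in replicate 2: Neat1-201 held 22.5% of the counts in replicate 1 and 69.7% in replicate 2, and Neat1-202 held 77.3% and 24.0%. So which form of Neat1 led in replicate 2 depended on whether transcripts or reads were counted.

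For Malat1 the unspliced form stood at 31.8 TPM in replicate 1 and at 4.60 TPM in replicate 2, from 14994 and 352 counts, a 6.35-fold higher CPM in replicate 1 (log2 ratio 2.67). Malat1-204 went the other way, with 2.49 TPM from 86.6 counts in replicate 1 and 10.5 TPM from 61.7 counts in replicate 2, a 4.78-fold higher CPM in replicate 2. Its deposited intervals, 1.29 to 3.90 TPM and 7.36 to 12.8 TPM, did not overlap. Malat1-201 therefore had 92.7% of the gene's TPM in replicate 1 and 30.5% in replicate 2, while in counts it held 99.4% and 85.1%. Malat1-202 and Malat1-203 were at 0 in both libraries.

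Both genes are among those kept for the comparison of leading transcripts, the ones with the highest share of their gene's TPM. The leading transcript differed between the libraries for Malat1 and not for Neat1, 1 of 2 genes, against 32.3% of the 3060 genes. The difference in share, summed over the transcripts with the higher share in replicate 1, was 62.3 percentage points for Malat1 and 50.9 for Neat1. The median of this sum over the 3060 genes was 23.3. Of those genes, 11.8% and 20.1% reached the values of Malat1 and Neat1.

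**Figure D3:**
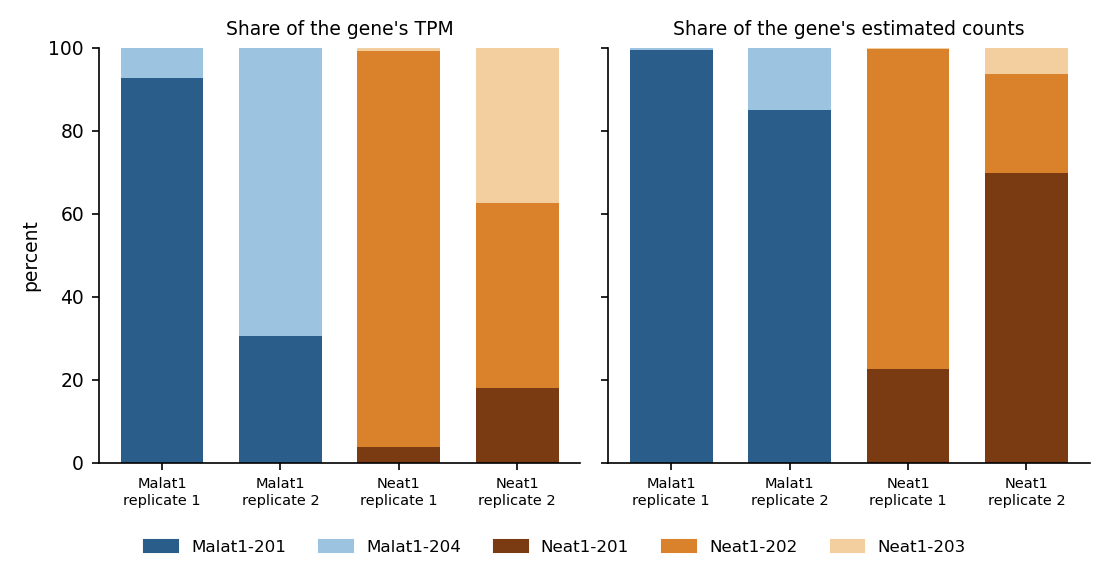
Percent of Malat1 and Neat1 assigned to each transcript in each library, of the gene's TPM (left) and of its estimated counts (right). Malat1-201 has 92.7% of TPM in replicate 1 and 30.5% in replicate 2 but 99.4% and 85.1% of counts, and Neat1-201 has 69.7% of the counts of replicate 2.

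Some of the Neat1 reads may be booked under another entry. The misc_RNA entry Gm27533, a stretch of 152 bases at chr19:5844286-5844437 on the same strand, lies inside exon 2 of Neat1-202 and inside Neat1-201, and had 189 estimated counts (196 TPM) in replicate 1 and 0.52 counts (1.85 TPM) in replicate 2. Its counts are few beside those of Neat1, while its TPM in replicate 1 exceeds that of Neat1. How reads were split between them is uncertain. Gm37376, on the other strand over Malat1, had 1 and 0 counts.

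Gas5 (ENSMUSG00000053332.9, chr1:161034422-161038539, plus strand), a host of box C/D snoRNAs whose spliced RNA is a standard example of nonsense-mediated decay, stood at 7.07 TPM in replicate 1 and at 2.02 TPM in replicate 2, a mean of 4.54 ± 3.57 TPM (SD, n = 2). The estimated counts were 205 and 7, so replicate 2 rests on few reads. In CPM, 2.53 and 0.581, it was 4.37-fold higher in replicate 1 (2.08 to 11.0; log2 ratio 2.11). Its posterior mean TPM was closer between the libraries, at 7.76 in replicate 1 and 6.24 in replicate 2. The deposited intervals of that estimate, 6.67 to 8.93 and 3.95 to 8.69, overlapped. In replicate 2 only 2 of the 25 listed transcripts had counts, and those with 0 counts still had a posterior mean above 0. The closer values thus do not show that the levels were closer. Gas5 reached the mean of 1 CPM only through replicate 1, and with a mean CPM of at least 10 it was not among the genes compared. At a minimum of 5 TPM or of 10 estimated counts in both libraries it was not detected.

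The tables list 25 Gas5 transcripts, of which 20 are annotated as retaining an intron. In replicate 1, 16 had counts, and the spliced Gas5-217 led with 29.2% of the gene's TPM (2.06 TPM), followed by the spliced Gas5-224 with 22.8%. In replicate 2 only Gas5-221, which retains an intron, with 63.2% (1.28 TPM from 3.90 counts), and Gas5-224, with 36.8% (3.10 counts), had counts. Intron-retaining transcripts together held 32.0% of Gas5 TPM in replicate 1 and 63.2% in replicate 2. Of the 25 transcripts, 17 hold bases of a snoRNA in their exons, and these had 25.2% and 63.2% of the TPM. With 7 counts in replicate 2, no difference in these shares could be read. The ends of the 2 leading spliced forms, on the plus strand, overlap and share the same ATTAAA, in capitals.
Gas5-217, chr1:161038480-161038539: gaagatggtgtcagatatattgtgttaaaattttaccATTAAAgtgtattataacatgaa
Gas5-224, chr1:161038478-161038537: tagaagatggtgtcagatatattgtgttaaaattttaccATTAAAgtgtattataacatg

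Snhg12 (ENSMUSG00000086290.4, chr4:132308623-132311024, plus strand), a host of mostly box H/ACA snoRNAs, was the host gene with the highest level, at 16.4 TPM in replicate 1 and at 6.82 TPM in replicate 2, a mean of 11.6 ± 6.80 TPM (SD, n = 2). Its counts were 254 and 58, and its direction depended on the scale: in TPM it was 2.41 times higher in replicate 1, and in CPM, at 3.14 and 4.81, it was 1.53-fold higher in replicate 2 (1.13 to 2.04; log2 ratio -0.61). The deposited mean length of its transcripts was 376 bases in replicate 1 and 890 bases in replicate 2. Snhg12-204, of 364 bases, had 97.5% of the gene's TPM in replicate 1 (234 counts) and 0% in replicate 2. Snhg12-201, of 890 bases, had 1.06% (8.87 counts) and 100% (58.0 counts). The deposited interval of Snhg12-204 in replicate 2 nevertheless ran from 0.000168 to 12.2 TPM. That of Snhg12-201 ran from 0.0362 to 5.98 TPM, below its own 6.82 TPM. Posterior mean shares there were 39.3% for Snhg12-204 and 30.7% for Snhg12-201. The values of 0% and 100% in replicate 2 were thus not well determined, and neither was the mean length there. No ratio is given for these forms.

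The other 3 host genes with an entry stayed under 1 TPM in replicate 2. Snhg6 (ENSMUSG00000098234.3, chr1:9941959-9944118, minus strand), host of Snord87, had 1.86 TPM from 82 counts in replicate 1 and 0 counts in replicate 2. The deposited intervals of its posterior mean TPM, 1.59 to 2.47 in replicate 1 and 0.24 to 1.99 in replicate 2, overlapped. That estimate is above 0 even with 0 counts, so the overlap does not settle whether the libraries differ. No ratio is given, but its binomial interval in CPM began at 3.24-fold higher in replicate 1. The mean CPM of 0.507 was under the minimum of 1, so Snhg6 was not among the genes compared. Of its level in replicate 1, 93.7% was Snhg6-205, a spliced form of 816 bases in 3 exons.

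Snhg5 (ENSMUSG00000097195.4, chr9:88521050-88522929, minus strand), host of Snord50a and Snord50b, had 0.26 TPM from 13 counts and 0.12 TPM from 1 count. The ratio in CPM was 1.94 with an interval of 0.291 to 82.4, so no difference was detectable at this depth. Its leading transcripts, Snhg5-206 in replicate 1 with 53.5% and Snhg5-204 in replicate 2 with 100%, are both annotated as retaining an intron.

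Snhg3 (ENSMUSG00000085241.3, chr4:132348014-132353686, minus strand), host of Snora73a and Snora73b, had 0.32 TPM from 4 counts in replicate 1 and 0 counts in replicate 2. This lies too near the limit of a 0 for a ratio. Rcc1, a protein-coding gene that overlaps Snhg3 on the same strand, had 2151 and 87.0 counts, so reads shared between them may have been booked under either. Zbtb37, over Gas5 on the opposite strand, had 68.0 and 8.00 counts and Mcmdc2, over Snhg6, 1 and 0; the sources used here do not say whether strand was used in counting, so such reads cannot be told apart. A retained-intron transcript led in either library for Gas5 and Snhg5, 2 of 7 genes. Such a transcript led for 15.2% of 9704 genes with more than 1 listed transcript and a count. The leads in Gas5 and Snhg5 rest on few counts. These were 3.90 for Gas5-221 in replicate 2, 7.21 for Snhg5-206 in replicate 1 and 1 for Snhg5-204 in replicate 2.

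The snoRNAs themselves were almost unseen, in libraries made from polyadenylated RNA with a lower size limit stated in the labels. GENCODE M21 places 29 snoRNA entries on the same strand inside the 9 genes, 10 in Gas5, 8 in Snhg1, 5 in Snhg12, 2 each in Snhg3 and Snhg5, and 1 each in Snhg6 and Snhg8, and 27 of them had an entry in the tables. Counts were found for 2, both in Snhg3: Snora73a had 3 counts and Snora73b 2 counts in replicate 1, and both had 0 in replicate 2. Across the tables, 0.876% of 1484 snoRNA entries had at least 1 count over both libraries.

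The starts of the host genes were read from the RefSeq promoter table (GRCm38.p6) to see which carry the pyrimidine start. Capitals mark a C followed by at least 4 more C or T that lies at the start base or within 10 bases of it, read on the gene's own strand.
Gas5, chr1:161035146-161035195: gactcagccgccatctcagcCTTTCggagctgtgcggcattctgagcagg
Snhg8, chr3:123508307-123508356: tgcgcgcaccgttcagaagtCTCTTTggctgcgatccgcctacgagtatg
Snhg12, chr4:132308658-132308707: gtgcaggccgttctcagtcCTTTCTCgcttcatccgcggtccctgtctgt
Snhg3, chr4:132353657-132353706: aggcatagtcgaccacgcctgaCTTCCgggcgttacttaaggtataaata
Snhg5, chr9:88522868-88522917: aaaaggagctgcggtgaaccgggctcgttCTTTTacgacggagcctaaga
The tract began exactly at the start base in Gas5 and Snhg8, 2 of the 7 genes in that table, against 3.01% of 27025 genes. Within 10 bases of the start it was found in 5 of 7, adding Snhg12, Snhg3 and Snhg5, against 34.4% of all genes. In Malat1 and Snhg1 these letters were not in the window, and the table was not matched for Neat1 and Snhg6. A second Gas5 window in the table, with another start, lacked the tract.

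The members' differences between the libraries were set against those of all genes. Of the 4 whose mean CPM was 1 or more, 3 (Malat1, Neat1 and Gas5) were at least 2-fold higher in replicate 1 and 0 in replicate 2. Of these 3, Gas5, with 7 counts in replicate 2, was under 1 CPM there and passed only through replicate 1. Among all 8884 genes that reached this mean CPM, 30.0% were at least 2-fold higher in replicate 1 and 17.9% in replicate 2, and among 197 lncRNA genes 18.8% were higher in replicate 1. A log2 ratio at or above that of the member was found in 9.1% of the 8884 genes for Malat1, 10.2% for Neat1 and 12.3% for Gas5. The median log2 ratio of all these genes was 0.20 with TMM and 0.60 with scaling by total counts. Calls higher in replicate 1 made up 62.6% of all calls with TMM and 79.1% with total counts. Median ratios also moved with gene length, from 0.51 in the shortest to 0.02 in the longest of 4 equal groups of genes by length, and the part of length or depth in the members' ratios was not tested.

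**Figure D4:**
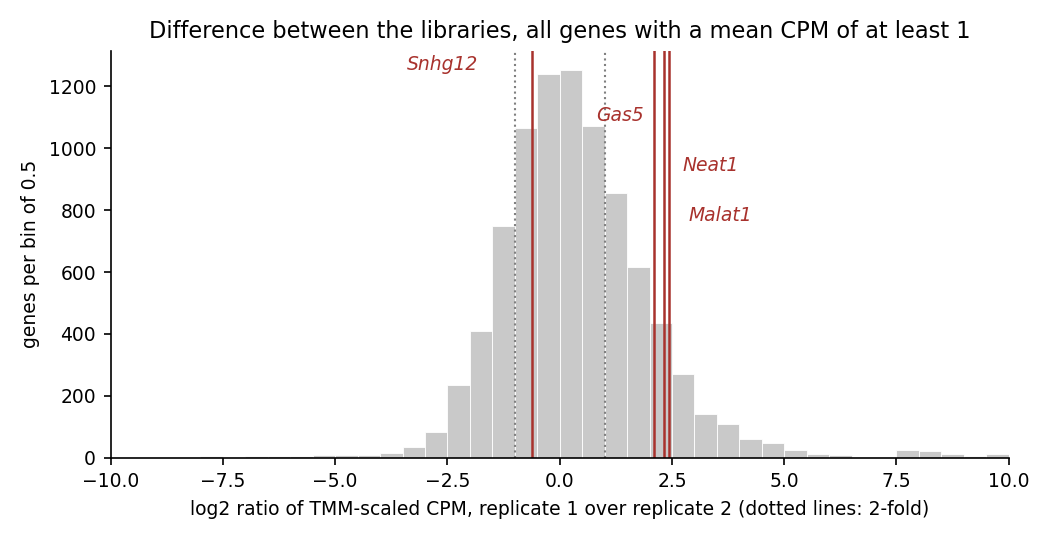
Number of genes by log2 ratio of TMM-scaled CPM, replicate 1 over replicate 2, for the 8884 genes whose mean CPM was 1 or more, in bins of 0.5 (values past 10 are counted in the end bins), with red lines at the 4 members tested and dotted lines at 2-fold. Gas5, Neat1 and Malat1 lie together between 2.11 and 2.44, and Snhg12 lies at -0.61, between the dotted lines. Gas5 was under 1 CPM in replicate 2.

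Genes of 9 lists were looked at beside the members. The lists held 126 different genes with an entry, of which 90 were detected, and of 103 that passed the CPM filter 47 were at least 2-fold higher in replicate 1 and 13 in replicate 2. Of the 47, 12 were under 1 CPM in replicate 2, as were 593 of the 2663 genes higher in replicate 1 among all genes. Of 11 other snoRNA host lncRNAs with an entry, 3 were detected, and the median over the 11 was 0.89 TPM. Epb41l4aos had 22.4 and 3.28 TPM, Snhg20 had 23.2 and 1.51 TPM, and Snhg9 had 6.55 and 0 TPM, while Snhg18 was at 0 in both. Of the 5 whose mean CPM was 1 or more, 4 were at least 2-fold higher in replicate 1, with a median log2 ratio of 2.09, but 3 of these 4 (Epb41l4aos, Snhg16 and Snhg17, with 8, 3 and 7 counts in replicate 2) were under 1 CPM in replicate 2 and passed only through the library where they were high. The 20 protein-coding snoRNA hosts stood on another level: 19 were detected, with a median of 91.1 TPM over the 20 and 97.7 TPM over the 19. Their highest were the ribosomal protein gene Rpl13a at 3496 and 4197 TPM, Tpt1 at 1862 and 4098 TPM and the translation factor gene Eif4g2 at 2266 and 3068 TPM, and their lowest was Dkc1, the H/ACA pseudouridine synthase, at 1.24 and 0.17 TPM. Of these 20, 10 were at least 2-fold higher in replicate 1 and 0 in replicate 2, with a median log2 ratio of 0.98. Among the 10, Dkc1 was under 1 CPM in replicate 2.

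Of 20 other regulatory lncRNAs, 6 were detected, and the median over the 20 was 0.055 TPM. Norad, a cytoplasmic RNA that binds Pumilio proteins, had 197 and 807 TPM, more than any of the 7 genes measured here. Tug1 had 22.1 and 39.0 TPM, Oip5os1 26.6 and 1.63 TPM, and Lncpint 0 in both. In CPM, Norad was higher in replicate 2 (log2 ratio -2.19) and Oip5os1 higher in replicate 1 (2.16). Of the 7 that passed the filter, 2 were at least 2-fold higher in replicate 1 and 1 in replicate 2, with a median log2 ratio of -0.13 that was 0.27 with total counts.

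Genes for proteins that work with these RNAs were mostly detected. Of 14 paraspeckle protein genes, 13 were detected, with a median of 24.1 TPM over the 14 and 32.1 TPM over the 13. Cpsf6, a 3′ end processing factor, had 171 and 1142 TPM, and Sfpq, a core paraspeckle protein that binds Neat1, had 213 and 1040 TPM, both opposite in direction to Neat1. Ewsr1 had 893 and 203 TPM and Matr3 4.91 and 0.42 TPM. In all, 10 of the 14 were at least 2-fold higher in replicate 1 and 2 (Cpsf6 and Sfpq) in replicate 2, with a median log2 ratio of 1.61. Among the 10, Matr3 was under 1 CPM in replicate 2. Nuclear speckle protein genes had a median of 118 TPM, and 12 of 12 were detected, led by the splicing factor gene Srsf2 at 611 and 1689 TPM, Srrm1 at 594 and 1385 TPM and U2af2 at 218 and 202 TPM, with Srsf3 lowest at 4.96 and 3.91 TPM. Here 2 were at least 2-fold higher in replicate 1 and 4 in replicate 2, with a median log2 ratio of 0.08.

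Among 17 genes of the box C/D and H/ACA particles that package snoRNAs, 12 were detected. The median was 16.4 TPM over the 17 and 23.2 TPM over the 12. The box C/D methyltransferase gene Fbl had 133 and 53.7 TPM, the assembly factor gene Ruvbl2 95.7 and 65.7 TPM and the H/ACA core gene Nhp2 55.9 and 40.9 TPM. Of 16 whose mean CPM was 1 or more, 8 were at least 2-fold higher in replicate 1 and 2 in replicate 2, with a median log2 ratio of 1.00. Of these 8, 4 (Dkc1, Nop58, Ruvbl1 and Znhit6, with 5, 4, 3 and 4 counts in replicate 2) were under 1 CPM there. They passed only through the library where they were high. Nonsense-mediated decay genes, 13 of 16 detected, had a median of 28.1 TPM over the 16 and 45.7 TPM over the 13. The helicase gene Upf1 had 104 and 139 TPM, its kinase Smg1 21.2 and 111 TPM, Eif4a3 92.1 and 22.8 TPM and Magohb 0. Of 15 that passed the filter, 6 were at least 2-fold higher in replicate 1 and 2 in replicate 2, with a median log2 ratio of 0.53. Among the 6, Upf2 and Upf3b were under 1 CPM in replicate 2.

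Of 10 nuclear RNA decay genes, 9 were detected, with a median of 21.3 TPM over the 10 and 26.1 TPM over the 9. The exosome subunit gene Exosc5 had 132 and 377 TPM, the nuclear poly(A)-binding protein gene Pabpn1 185 and 277 TPM, Exosc3 40.9 and 22.5 TPM, and Mtrex, the exosome helicase gene, 0.60 and 0.31 TPM. At 2-fold or more, each direction held 2 of the 10, with a median log2 ratio of -0.37 that was 0.03 with total counts. Of 8 genes for the processing of nuclear lncRNA ends and the methylation of Malat1, 4 were detected. The median was 3.28 TPM over the 8 and 8.75 TPM over the 4. The m6A reader gene Ythdc1 had 18.1 and 14.2 TPM, Elac2, which cuts the 3′ ends of transfer RNA precursors, 11.7 and 16.6 TPM, Mettl16, a methyltransferase known to bind the Malat1 triple helix, 7.75 and 0.09 TPM, and the RNase P subunit gene Rpp38 0.37 and 0.39 TPM. Of the 6 that passed the filter, 4 were at least 2-fold higher in replicate 1 and 0 in replicate 2, with a median log2 ratio of 1.78. Of these 4, 2 (Mettl16 and Rpp14, with 2 and 3 counts in replicate 2) were under 1 CPM there. They passed only through the library where they were high.

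**Figure D5:**
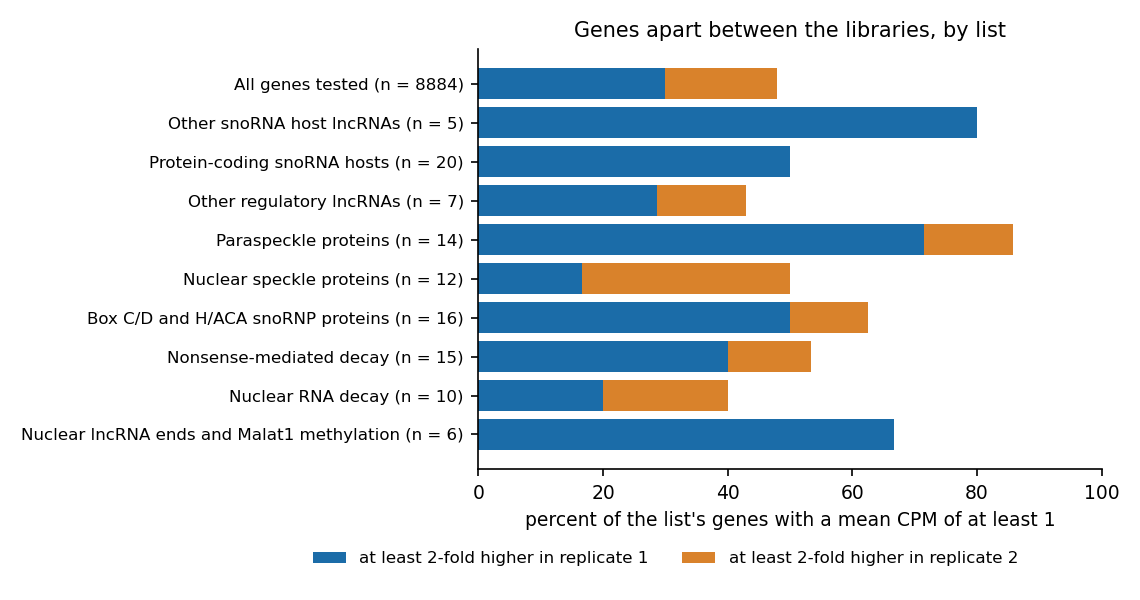
Percent of each list's genes, where the mean CPM was 1 or more, that were at least 2-fold higher in replicate 1 (blue) or replicate 2 (orange), with n genes, beside all genes tested. Of all genes, 30.0% and 17.9% were apart in these directions. The share higher in replicate 1 runs from 2 of 12 speckle protein genes to 4 of 5 other snoRNA host lncRNAs. Among the 47 list genes higher in replicate 1, 12 were under 1 CPM in replicate 2.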

How the data were processed

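Polyadenylated RNA was sequenced in 2 libraries of 1 group. The labels name the mm10 assembly, and a text deposited with the tables names GENCODE M4 and transcriptome alignments as the start of the quantification. The sources used here do not name the aligner or the quantification tool, or say whether strand was used. Per the file headers, the values are estimated counts (maximum likelihood and posterior mean), TPM and FPKM on effective length, and, for transcripts, the deposited percent of the TPM of the gene. They also hold intervals of posterior mean TPM, whose level is not stated. The members and lists were chosen with earlier results of these data known.

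Symbols, positions, transcript models and biotypes came from GENCODE M21 by identifier without version (42462 of 43346 genes named), with RefSeq synonyms for older symbols. List symbols without a match (Snhg4, Snhg7, Snhg10 and Dancr) were not analysed here. Levels are TPM as deposited. For ratios between libraries, whole-number rounding of the estimated counts was followed by TMM scaling in edgeR 4.0.16 (R 4.3.3), with a prior count of 0.5 for log2 ratios. Where the mean CPM was 1 or more, genes were counted when at least 2-fold apart. Leading transcripts were compared in genes with at least 10 TPM in both libraries and more than 1 listed transcript. Python 3.11.15 with pandas 2.3.3, scipy 1.17.1 and matplotlib 3.10.9 did the rest, and the ratio step was tested on simulated data. Depth was 70451042 and 13841487 counts, so replicate 2 sets the precision. The named genes are the members, snoRNA entries inside them with at least 1 count, and genes that overlap a member. The 3 highest and the lowest of each list are named too. Gm42418, Gm26917, Hbb-bs, Pf4 and, among the markers, Gata1 were named after their values were seen. Alternatives were DESeq2 1.42.0 size factors, total counts, TPM with a pseudocount, posterior means, FPKM, other minimum levels, counts and folds, sets without mitochondrial, globin, ribosomal RNA-like and histone genes, and leaving out each library.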

Additional observations from a re-analysis of the deposited data

How the results depend on the processing

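No paired analysis was possible because the labels give 1 group. The summed level of the 7 genes had a mean of 98.3 TPM, 36.2 TPM without replicate 1 and 160 TPM without replicate 2; it was 297 in TMM-scaled CPM, which is another unit. Detected members numbered 4, and 3, without Gas5, at a minimum of 5 TPM or of 10 estimated counts. They ranged from 4 to 5 and detected list genes from 91 to 105 when 1 library was left out, against 4 and 90 with both. Members at least 2-fold apart numbered 3, and 5 with no filter on low counts, which added Snhg3 and Snhg6 with more genes tested; a mean CPM of at least 10 left 2, without Gas5, and TPM and a 1.5-fold limit gave 4, adding Snhg12 in opposite directions. The 60 list genes so apart stayed between 41 and 77 under all 9 alternatives run. Over all genes, 2663 were higher in replicate 1 and 1593 in replicate 2, against 1348 and 1148 with a mean CPM of at least 10, 6301 and 3904 with no filter, 3564 and 942 with total counts, and 3569 and 2462 at 1.5-fold. The leading transcript differed in 1 of 2 members, against 32.3% of 3060 genes. At a minimum of 1 TPM it differed in 3 of 4 (Malat1, Gas5 and Snhg12), against 34.6% of 5519 genes. The lead in Gas5 in replicate 2 rests on 3.90 counts, and by posterior mean share Snhg12-204 led in both libraries. In shares of counts the 1 member of 2 was Neat1, not Malat1, against 31.5% of 3060 genes. No member reached 50 TPM in both libraries, so that alternative gave no value. A pyrimidine tract at the start, in 2 members, was in 5 within 10 bases and in 0 with at least 6 more C or T. The log2 ratio of Malat1 ran from 1.18 (TPM) to 2.84 (total counts), that of Neat1 from 2.25 to 3.03 and that of Gas5 from 1.76 to 2.50, and that of Snhg12 was 1.26 in TPM and between -0.68 and -0.22 in the other alternatives run. Ratios between libraries have no version with a library left out, and none with posterior mean TPM. The intervals of that estimate for Gas5 overlapped, but they rest on 7 counts in replicate 2. Depth limits Gas5, Snhg3, Snhg5 and Snhg6, which had 7 counts or fewer in replicate 2.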
